A study of Mus musculus with 8 samples.

Results

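The interferon-induced transmembrane (IFITM) family was followed in calvarial osteoblastic cultures by its 5 members Ifitm1, Ifitm2, Ifitm3, Ifitm5 and Ifitm10, taken by symbol from the 24421 genes of the per-library expression files. The cells came from the skull caps of newborn C57BL/6 mice aged 0 to 3 days, either wild type (WT) or Def6-/-, and were sequenced at day 0 or at day 12 of culture in osteogenic medium with 100 µg/mL ascorbic acid, 10 mM β-glycerophosphate and 10% serum. Def6-/- mice lack the gene in every cell, and Def6 encodes a guanine nucleotide exchange factor studied mainly in immune cells. Each of the 4 groups (WT day 0, Def6-/- day 0, WT day 12, Def6-/- day 12) had 2 libraries, 8 in all, with 2414856 to 3482837 reads on genes.

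IFITM proteins are small membrane proteins. Ifitm1, Ifitm2 and Ifitm3 encode the interferon-inducible members, which sit in the plasma membrane and in endosomes and hinder the fusion of enveloped viruses with the cell. Ifitm5, also called Bril, is the exception: its transcript is largely restricted to osteoblasts that are laying down mineralizing bone, it is not known as an interferon target, and a mutation of its human counterpart causes osteogenesis imperfecta type V. Ifitm10 is the least studied and the most divergent of the 5.

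The 5 genes lie on chromosome 7 of GRCm38 (mm10). Ifitm5 (ENSMUSG00000025489) occupies chr7:140948958-140950291 on the minus strand, Ifitm2 chr7:140954837-140955987 on the minus strand, Ifitm1 chr7:140967221-140969825 on the plus strand and Ifitm3 chr7:141009586-141010770 on the minus strand. Ifitm5 and Ifitm2 are 4545 bases apart, Ifitm2 and Ifitm1 11233 bases, and Ifitm1 and Ifitm3 39760 bases. Ifitm10, at chr7:142325837-142373753 on the minus strand, lies outside this cluster. GENCODE gives 2 exons to each of Ifitm5, Ifitm2 and Ifitm3.

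The bases just before the genes of the bone member and of the pair of abundant members are shown because most values turn on these 3 genes. The sequences are from RefSeq's GRCm38.p6 promoters, written 5′ to 3′ on the gene's strand, and stop where the GENCODE gene begins. Capitals mark the core of the interferon-stimulated response element (GAAANNGAA) and the GC box (GGGCGG, or CCGCCC where it reads on the other strand).
Ifitm5, chr7:140950292-140950493, minus strand: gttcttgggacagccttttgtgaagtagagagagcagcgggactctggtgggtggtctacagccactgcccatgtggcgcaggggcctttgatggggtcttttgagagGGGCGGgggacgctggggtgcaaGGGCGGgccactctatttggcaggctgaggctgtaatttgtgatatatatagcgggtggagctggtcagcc
Ifitm2, chr7:140955988-140956211, minus strand: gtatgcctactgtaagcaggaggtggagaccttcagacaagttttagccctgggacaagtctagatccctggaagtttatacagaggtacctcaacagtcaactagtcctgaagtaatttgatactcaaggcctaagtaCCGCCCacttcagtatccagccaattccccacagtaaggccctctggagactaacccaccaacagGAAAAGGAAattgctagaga
Ifitm3, chr7:141010771-141010994, minus strand: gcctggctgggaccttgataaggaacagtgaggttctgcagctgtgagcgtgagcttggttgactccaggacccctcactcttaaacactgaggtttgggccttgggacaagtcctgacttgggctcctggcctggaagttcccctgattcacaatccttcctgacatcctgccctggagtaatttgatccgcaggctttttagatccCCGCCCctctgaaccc

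Both strands of the 250 bases before each RefSeq start were searched, and no match overlapped another. The Ifitm1 window and 2 of the 3 Ifitm10 windows lie wholly inside the GENCODE gene, so the bases before the GENCODE start of Ifitm1 were not searched. Within the windows searched, Ifitm2 alone matched GAAANNGAA, a motif found in 7.13% of the 32851 promoters in the table. No window of the 5 genes matched TTCNNNGAA, the gamma-activated site, which 7.02% of promoters held. The GC box, a motif chosen after the sequence had been seen, was present in 32.7% of promoters. In the Ifitm5 promoter it occurred on the gene's own strand at 142 and 119 bases before the RefSeq start (positions -142 and -119). Ifitm2 held the GC box at positions -111 and -24, the latter inside the GENCODE gene and not printed, Ifitm3 at position -42, and Ifitm10 at position -14 of one window and -66 of another. A match describes letters in these windows and does not show binding.

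Levels are given as normalized CPM, reads per 1000000 reads on genes after TMM scaling. Ifitm5 had 0 reads in each of the 4 day 0 libraries. At day 12 it stood at 12 and 10.3 normalized CPM in the WT cultures (42 and 25 reads) and at 17.6 and 22.8 normalized CPM in the Def6-/- cultures (44 and 55 reads). Both Def6-/- cultures were above both WT cultures, and the day groups did not overlap. The share of all genes with such an order was not counted.

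Ifitm3, whose protein restricts influenza virus in endosomes, had the highest normalized CPM of the members in every library. Its levels were 359 and 221 normalized CPM in WT cells and 227 and 269 in Def6-/- cells at day 0. At day 12 they were 383 and 448 normalized CPM in WT cells and 310 and 318 in Def6-/- cells. The Def6-/- cultures were both below the WT cultures at day 12, while the genotypes overlapped at day 0. As for Ifitm5, the share of all genes with such an order was not counted.

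Ifitm2, a close relative of Ifitm3, stood at 164 and 144 normalized CPM in WT cells and 127 and 142 in Def6-/- cells at day 0. Its day 12 levels were 268 and 169 normalized CPM in WT cells and 252 and 261 in Def6-/- cells. The WT cultures at day 12 differed from each other by more than the Def6-/- cultures did, and the lower one was close to the day 0 range. Of the 50-base stretches of the Ifitm2 exons, 22.8% recur at other loci, including Ifitm3 and several pseudogenes, compared with 10% for Ifitm3, 5.02% for Ifitm1 and 0% for Ifitm5 and Ifitm10. Reads that map to more than 1 place were left uncounted. They made up 21.4% to 34.9% of all reads of a library, a share that is not specific to the members. The levels of Ifitm2, Ifitm3 and Ifitm1 are therefore uncertain by an amount that was not measured. The readthrough gene Gm45717 overlaps exons of Ifitm5 and Ifitm2, and Gm49369 overlaps exons of Ifitm10. Neither is among the 24421 genes used here, and reads of such transcripts on the shared exons cannot be told apart from those of the members.

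Ifitm1, which encodes the member found mainly at the cell surface, was low, with 3 to 8 reads per library at day 0 and 12 to 18 at day 12. Its levels were 2.75 and 1.09 normalized CPM in WT cells and 1.54 and 2.82 in Def6-/- cells at day 0, and 5.12 and 5.33 in WT cells and 5.21 and 4.98 in Def6-/- cells at day 12. Every day 12 library was above every day 0 library, on few reads. Ifitm1 entered the tests below through its day 12 groups only, and how many of all genes show this order was not counted.

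Ifitm10 showed no order by day or genotype. Its levels were 13.7 and 6.19 normalized CPM in WT cells and 8.09 and 8.10 in Def6-/- cells at day 0, and 10.5 and 9.43 in WT cells and 12.4 and 5.81 in Def6-/- cells at day 12. The spread within the WT day 0 and Def6-/- day 12 groups covered the levels of the other groups.

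**Figure D1:**
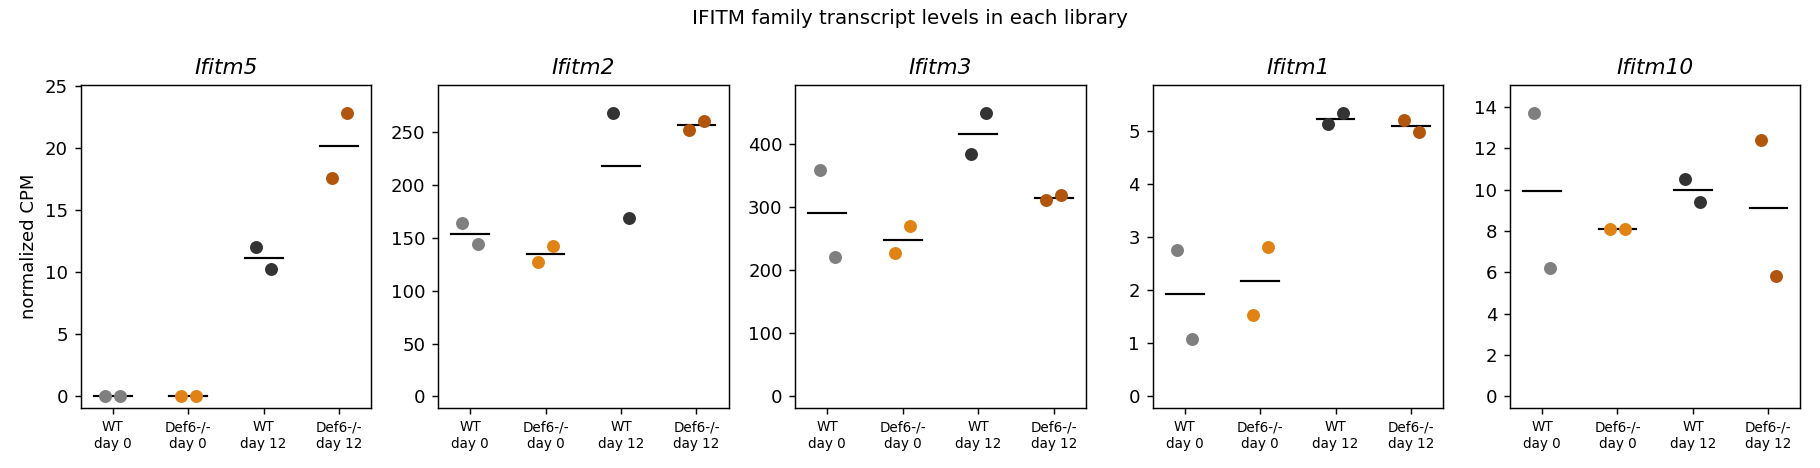
Normalized CPM of each family member in every library (points) with the group mean (bars), for WT and Def6-/- cultures at day 0 and day 12, with a separate vertical scale for each gene. Ifitm5 lies at 0 in the 4 day 0 libraries and between 10.3 and 22.8 at day 12, and Ifitm10 overlaps across all groups.

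Between members, levels were compared per kb of exon. In WT cells at day 12 the order was Ifitm3 (613 ± 68.0 normalized CPM per kb, SD, n = 2), Ifitm2 (333 ± 106), Ifitm5 (14.5 ± 1.57), Ifitm1 (4.78 ± 0.135) and Ifitm10 (2.08 ± 0.162). The same order held in Def6-/- cells at day 12, with Ifitm3 at 463 ± 7.90 normalized CPM per kb, Ifitm2 at 392 ± 9.12, Ifitm5 at 26.5 ± 4.79, Ifitm1 at 4.66 ± 0.150 and Ifitm10 at 1.90 ± 0.977. The exon lengths include the stretches that recur at other loci, 22.8% for Ifitm2 and 10% for Ifitm3, where reads were lost. The order of Ifitm3 and Ifitm2 in Def6-/- cells at day 12 is therefore uncertain. At day 0 Ifitm3 and Ifitm2 again led, while Ifitm1 (1.75 ± 1.07 in WT and 1.99 ± 0.825 in Def6-/- cells) and Ifitm10 (2.08 ± 1.11 and 1.69 ± 0.00142) did not differ beyond their spread.

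The ratio of Ifitm3 to Ifitm2 reads was 2.19 and 1.54 in WT cells and 1.78 and 1.90 in Def6-/- cells at day 0. At day 12 it was 1.43 and 2.65 in WT cells and 1.23 and 1.22 in Def6-/- cells. The ratio was lower in both Def6-/- cultures than in any other library, but the WT cultures at day 12 spanned a wide range, and 2 libraries against 2 cannot give an exact two-sided permutation p below 0.333. Ifitm5 made up 1.57% and 1.43% of the per-kb family total in WT cells and 2.64% and 3.31% in Def6-/- cells at day 12.

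The remaining family genes in the files were close to silent. Ifitm6, which lies 4928 bases beyond Ifitm3, had 7 reads over all 8 libraries. Ifitm7, on chromosome 16, was at or below 0.771 normalized CPM in every library.

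Def6 itself was read 147 and 112 times in WT cells and 0 and 1 times in Def6-/- cells at day 0, and 186 and 137 times against 2 and 2 times at day 12, as the labels say. The summed level over 30 osteoblast genes was 40823 to 59624 normalized CPM at day 0 and 101938 to 138227 at day 12. In WT cells at day 0 the highest of these genes were Col1a1 (20639), Col1a2 (11357) and Sparc (8079), matrix genes. At the same time Alpl stood at 18.8, Ibsp at 5.46 and Dmp1 at 1.57 normalized CPM. Bglap, Bglap2, Mepe, Sost and Fgf23 had no reads at day 0. The 4 T and B cell markers had no reads in any library. The WT day 0 replicate 1 library stood apart, with 34.9% of its reads not uniquely mapped against 21.4% to 26.6% in the other 7.

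The first question was how the family changed as WT cells matured in osteogenic medium. Each gene was tested with limma on log2(normalized CPM + 1), with Benjamini-Hochberg adjustment over 12348 genes. All 5 members passed the filter on low genes, Ifitm1 and Ifitm5 through the day 12 groups only, so that these low genes were bound to be higher there. In WT cells 1 member, Ifitm5, was significantly up-regulated at day 12, beside a background of 12.1% of all tested genes called higher, and no member was called lower (6.61% of all genes). The log2 difference of Ifitm5 was 3.59 ± 0.33 (SE, adjusted p = 0.000239, limma). Set against a floor of 3 reads per library at day 0, Ifitm5 was at least 9.79-fold higher at day 12. The fitted value depends on the pseudocount, the scaling and the test. In WT cells it was 4.53 with a pseudocount of 0.5 and 6.80 with 0.1. Over the alternatives it ran from 2.19 (CPM as deposited) to 7.92 (edgeR) in WT cells. In Def6-/- cells it ran from 2.97 to 8.77 with the same 2 settings, and all alternatives were called.

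The other members did not pass in WT cells. The log2 difference was 1.15 ± 0.39 for Ifitm1 (SE, adjusted p = 0.0762, limma), 0.55 ± 0.24 for Ifitm3 (adjusted p = 0.142) and 0.46 ± 0.23 for Ifitm2 (adjusted p = 0.190). In each of these 3 genes both day 12 libraries were above both day 0 libraries. How often this order occurs over all genes was not counted. With 2 libraries against 2, the exact two-sided permutation p cannot fall below 0.333. Without WT day 0 replicate 1, Ifitm3 (0.95, adjusted p = 0.000863) and Ifitm1 (1.61, adjusted p = 0.0232) passed the test, and without WT day 0 replicate 2 Ifitm3 stood at 0.21 (adjusted p = 0.288) and Ifitm1 at 0.73 (adjusted p = 0.193). Ifitm2 stood at 0.13 (adjusted p = 0.781) without WT day 12 replicate 1 and at 0.82 (adjusted p = 0.082) without WT day 12 replicate 2. Ifitm10 stood at 0.09 ± 0.43, with a 95% interval from -0.88 to 1.07.

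In Def6-/- cells 2 members, Ifitm5 and Ifitm2, were significantly up-regulated at day 12, beside 11% of all tested genes called higher, and none was called lower (6.2% of all genes). The log2 difference of Ifitm5 was 4.40 ± 0.33 (SE, adjusted p = 8.3e-05, limma), and the gene was at least 18.3-fold higher than the floor of 3 reads per library. Ifitm2 rose by 0.93 ± 0.23 on the log2 scale (adjusted p = 0.0239), a ratio of group means of 1.91. This call needs all 4 Def6-/- libraries, since leaving out any of them gave an adjusted p between 0.0941 and 0.169. With the CPM as deposited the adjusted p was 0.0627.

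Ifitm1 in Def6-/- cells differed between the days by 0.97 ± 0.39 on the log2 scale (SE, adjusted p = 0.133, limma), Ifitm3 by 0.34 ± 0.24 (adjusted p = 0.371) and Ifitm10 by 0.07 ± 0.43 (adjusted p = 0.933). Ifitm3 passed in this comparison without WT day 0 replicate 1 (0.41, adjusted p = 0.0232), without WT day 0 replicate 2 (0.34, adjusted p = 0.0466) and when the Def6-/- libraries were fitted alone (0.40, adjusted p = 0.0347).

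**Figure D2:**
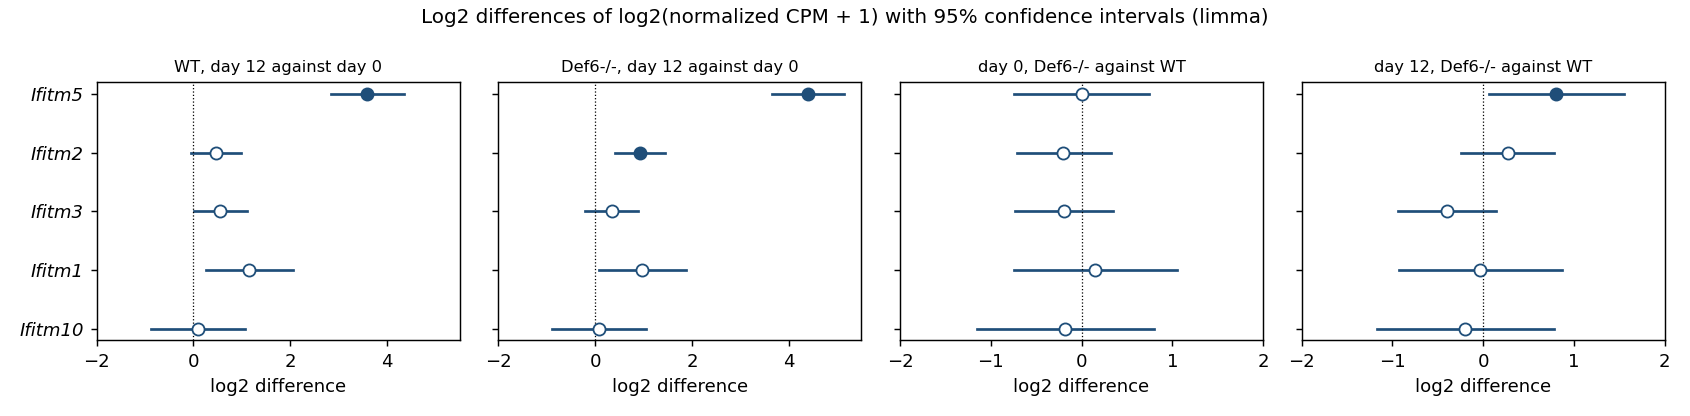
Log2 differences of log2(normalized CPM + 1) for each member (points, filled where called) with 95% confidence intervals (lines) from limma, for the 2 day comparisons and the 2 genotype comparisons, the latter drawn on a narrower horizontal scale. Ifitm5 is at 3.59 and 4.40 in the day comparisons and at 0.80 between the genotypes at day 12, while the intervals of Ifitm10 include 0 in all 4 panels.

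Macrophage markers rose in the same cultures. Of 19 markers, 16 were called higher at day 12 in WT cells and 16 in Def6-/- cells, and their summed level went from 300 to 450 normalized CPM in WT and 223 to 354 in Def6-/- libraries at day 0 to 3333 to 6709 in WT and 3656 to 4109 in Def6-/- libraries at day 12. Any marker that passed the filter through its day 12 groups only was bound to be higher there, and such markers were not counted. In these bulk cultures more cells of a type and more RNA per cell cannot be told apart, and the part of the macrophage RNA in the levels of Ifitm1, Ifitm2 and Ifitm3 was not tested.

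Interferon-stimulated genes outside the family, from a list of 44, were set beside the inducible members. In WT cells 37 of the 41 tested were called higher at day 12 and none lower, with a median log2 difference of 2.21, beside -0.04 over all genes. In Def6-/- cells 22 of 41 were called higher and none lower, with a median of 1.57 beside -0.07 over all genes. Any gene of the list that passed the filter through its day 12 groups only was bound to be higher there. Such genes were not counted, so part of these counts and medians follows from the filter. Ifit3, which binds viral RNA together with Ifit1, rose by 4.28 on the log2 scale in WT cells (adjusted p = 0.000239, limma) and by 3.37 in Def6-/- cells (adjusted p = 0.000768). Gbp3, a guanylate binding protein, rose by 3.74 in WT cells, and Bst2, which tethers budding viruses to the cell, by 2.95 in Def6-/- cells. The log2 differences of Ifitm2 and Ifitm3, 0.46 and 0.55 in WT cells, lay below the median of this list.

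Ifitm5 was likewise set beside genes of osteoblasts and of mineralization. Of 29 tested, 14 were called higher and 1 lower at day 12 in WT cells (median log2 difference 1.35), and 17 higher and 1 lower in Def6-/- cells (median 1.62). Alpl, the alkaline phosphatase of mineralizing bone, rose by 3.61 in WT and 4.37 in Def6-/- cells on the log2 scale, and Smpd3, a sphingomyelinase needed for mineralization, by 4.04 and 4.86. Ptn, the gene of the list with the smallest p in WT cells, rose by 3.79 and 3.21. The gene called lower was Tnfrsf11b in both genotypes, at -1.19 in WT and -1.04 in Def6-/- cells. Spp1, Sp7 and Runx2 were not called in either genotype. Bglap, Bglap2, Mepe and Sost, with no reads at day 0, passed the filter through day 12 groups only and were bound to be higher there. Ifitm5, with no reads at day 0, has only a lower bound of its change to set beside these values, at least 9.79-fold in WT and 18.3-fold in Def6-/- cells.

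At day 0 the genotypes were compared with the study's own rule, an unadjusted p under 0.05 with more than a 1.2-fold difference. No member was called by limma, edgeR or DESeq2, beside backgrounds of 1.13% of genes called higher and 1.21% called lower in limma. The log2 differences, Def6-/- minus WT, were 0.15 ± 0.39 for Ifitm1 (SE), -0.20 ± 0.23 for Ifitm2, -0.19 ± 0.24 for Ifitm3 and -0.18 ± 0.43 for Ifitm10. Ifitm5 had no reads in either genotype, so no difference was detectable at this depth. Without WT day 0 replicate 2, Ifitm3 stood at -0.54 (unadjusted p = 0.00402 and adjusted p = 0.0239, limma), and without WT day 0 replicate 1 it turned to 0.15 (adjusted p = 0.973), so its direction at day 0 rests on which WT library is used.

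At day 12, by contrast, 1 member was called between the genotypes. Ifitm5 was higher in Def6-/- cells, at 20.2 ± 3.67 against 11.1 ± 1.2 normalized CPM (SD, n = 2 each), a ratio of means of 1.82, beside a background of 0.753% of genes called higher. The log2 difference was 0.80 ± 0.33 (SE), with a 95% interval from 0.06 to 1.55 and an unadjusted limma p of 0.0371. It did not survive adjustment over all genes (adjusted p = 1). Over 18 alternatives the difference stayed between 0.64 and 1 with an unadjusted p between 0.00628 and 0.23, and 11 of the 18 kept the call. The call was lost without WT day 12 replicate 1 (unadjusted p = 0.0687, limma), WT day 12 replicate 2 (0.123) or Def6-/- day 12 replicate 2 (0.163). It was also lost with a pseudocount of 0.5 (unadjusted p = 0.0716, limma) or 0.1 (0.23), with the filter at 5 CPM (0.0968), and with DESeq2 on the reads (0.115). The limma fit shares its spread with the day 0 libraries, where Ifitm5 was 0 throughout and had no spread.

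The interferon-inducible members were not called lower in Def6-/- cells at day 12, beside a background of 0.648% of genes called lower. Ifitm3 had a log2 difference of -0.40 ± 0.24 (SE, unadjusted p = 0.129, limma). Both of its Def6-/- libraries were below both WT libraries, an order whose share over all genes was not counted. It passed the study's rule when either WT day 0 library was left out (-0.39, unadjusted p = 0.00938 without replicate 1 and -0.40, unadjusted p = 0.00724 without replicate 2, limma) and when only the day 12 libraries were fitted (-0.39, unadjusted p = 0.00543). Its adjusted p was 0.735 or more in every alternative. Ifitm2 stood at 0.27 ± 0.23 (SE) and would pass without WT day 12 replicate 1 (0.60, unadjusted p = 0.0326, limma), but turned to -0.04 without WT day 12 replicate 2. Ifitm1 was at -0.03 ± 0.39 and Ifitm10 at -0.20 ± 0.43.

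The fixed lists were read in the same comparison. Of 41 interferon-stimulated genes, 15 were called lower in Def6-/- cells and none higher, with a median log2 difference of -0.75 beside -0.02 over all genes. Zbp1, a sensor of Z-form nucleic acids, had a log2 difference of -1.42 (unadjusted p = 0.00264, adjusted p = 1, limma), Gbp3 of -1.46 and Rtp4 of -1.35. Of 29 osteoblast genes, 6 were called higher and 1 lower, with a median of 0.35. Sost, the osteocyte inhibitor of Wnt signalling, was higher by 2.33, and Bglap2 and Bglap, which encode osteocalcin, by 1.62 and 1.12 on the log2 scale. Sost was at the floor in WT cells, at 0.285 ± 0.402 against 5.3 ± 0.448 normalized CPM in Def6-/- cells (SD, n = 2 each). It passed the filter through the Def6-/- day 12 group only, so it was bound to be higher there. Ptn, of the same list, stood lower in Def6-/- cells, at 1425 ± 218 against 2077 ± 93.3 normalized CPM in WT cells (SD, n = 2 each). The difference of Ifitm5, 0.80, lay above the median of the osteoblast list, and that of Ifitm3, -0.40, lay nearer to 0 than the median of the interferon-stimulated list. Macrophage markers were not called in either direction (0 of 19 by limma, edgeR or DESeq2 with the study's rule on the unadjusted p, median -0.26), and only 1 of the 19 had a difference above 0, beside 5738 of all 12348 genes and 0 of the 41 interferon-stimulated genes. Of 6 adipocyte markers tested, 4 were called higher in Def6-/- cells, and the summed level over all 8 markers was 417 to 427 against 309 to 327 normalized CPM in WT cells. Their part in the Ifitm5 level was not tested.

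**Figure D3:**
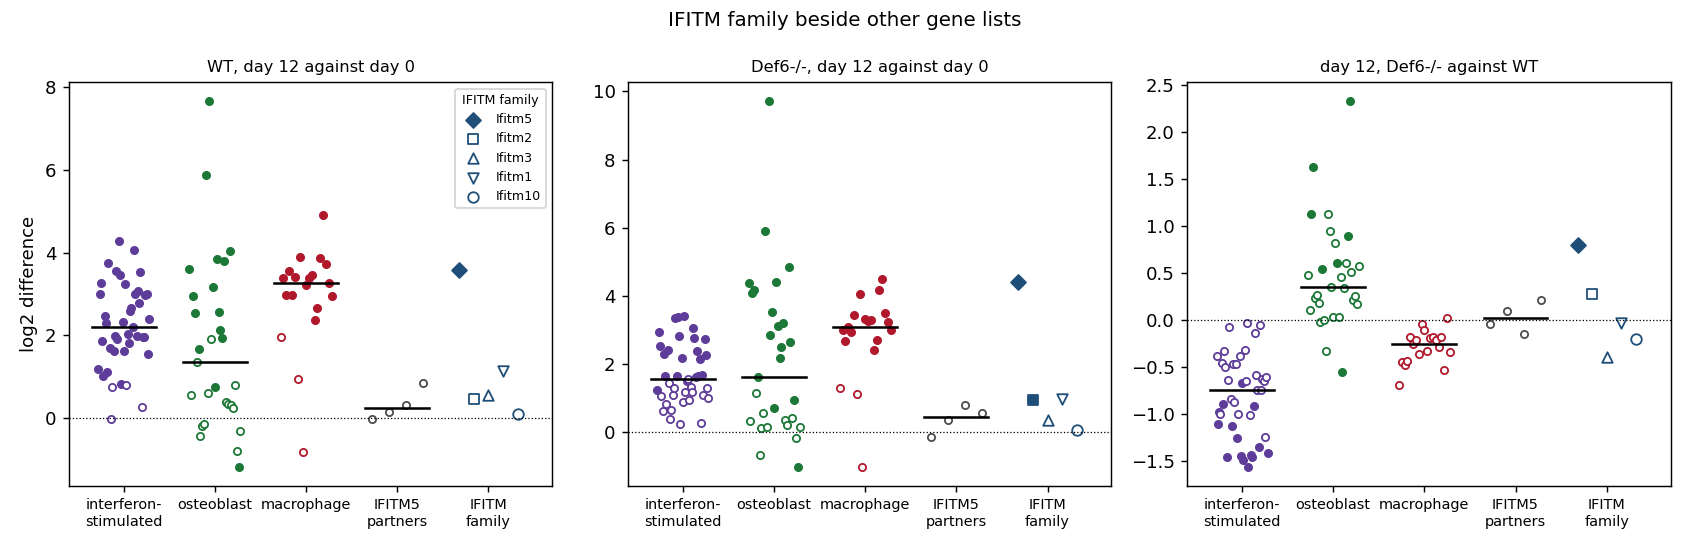
Log2 differences of the genes tested in 4 lists and of the 5 IFITM genes, in WT cells and Def6-/- cells at day 12 against day 0 and between the genotypes at day 12, with filled symbols for called genes, bars for list medians and a separate vertical scale for each panel. At day 12 the interferon-stimulated list has a median of -0.75 and the osteoblast list of 0.35, and Ifitm5 stands at 0.80 and Ifitm3 at -0.40.

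To ask whether the day change itself depended on Def6, the interaction of genotype and day was tested. No member was called by limma, edgeR or DESeq2 at an unadjusted p under 0.05 with more than a 1.2-fold difference, beside 1.06% of all genes called in limma. The interaction was 0.80 ± 0.46 for Ifitm5 (SE, unadjusted p = 0.117, limma), 0.47 ± 0.32 for Ifitm2 (unadjusted p = 0.181) and -0.21 ± 0.34 for Ifitm3 (unadjusted p = 0.55). Without WT day 0 replicate 1 the interaction of Ifitm3 was -0.54 (unadjusted p = 0.0182, limma), and without WT day 12 replicate 1 that of Ifitm2 was 0.80 (unadjusted p = 0.0292). Without the other WT library of the same day, the interaction of Ifitm3 turned to 0.14 (unadjusted p = 0.486) and that of Ifitm2 was 0.18 (unadjusted p = 0.561, limma). The larger Ifitm5 difference in Def6-/- cells and the Ifitm2 call in these cells were thus not shown to differ from the WT change. For Ifitm5, at 0 in every day 0 library, the limma interaction has the same value as the day 12 genotype difference. It is therefore not a separate test of that gene.

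Genes whose products are reported to bind IFITM5 or its complex were read next. Fkbp11, a prolyl isomerase of the secretory pathway, was at 58.4 ± 38.9 normalized CPM at day 0 and 65.5 ± 11.8 at day 12 in WT cells (SD, n = 2). Cd81 and Cd9, tetraspanins, and Ptgfrn, their immunoglobulin-domain partner, were also read in all groups from day 0 on. None of these 4 genes was called by limma or edgeR in the day comparisons or between the genotypes. Ptgfrn had an unadjusted p under 0.05 in WT cells between the days, with a log2 difference of 0.86 ± 0.26 (SE, adjusted p = 0.0536, limma), and was called higher there by DESeq2.

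Palmitoylation anchors IFITM3 in membranes and is carried out by several ZDHHC enzymes. Of Zdhhc2, Zdhhc3, Zdhhc7 and Zdhhc20, only Zdhhc2 was called in the day comparisons, and it fell in both genotypes. Its log2 difference was -1.77 in WT cells (adjusted p = 0.0102, limma) and -2.44 in Def6-/- cells (adjusted p = 0.00233). It was the least abundant of the 4 at day 12, at 2.23 ± 0.332 normalized CPM in WT and 1.42 ± 0.831 in Def6-/- cells (SD, n = 2). Nedd4, a ubiquitin ligase for IFITM3, and Setd7, a methyltransferase that acts on it, were not called by limma, edgeR or DESeq2 in any of the 4 comparisons of groups and had no unadjusted p under 0.05, with log2 differences from -0.07 to 0.40.

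Within 250 kb of the 5 members, 43 other genes of the files lie on the map besides Ifitm6, and 14 of them passed the filter. The nearest on the Ifitm5 side, Nlrp6 and BC024386, had no reads in any library, and beyond Ifitm6 on the other side B4galnt4 had 19 reads in all. Next to Ifitm10, Krtap5-4 and Krtap5-1 were silent, whereas Ctsd, the lysosomal protease cathepsin D, was read at 2402 normalized CPM at day 0 and 3318 at day 12 in WT cells and was not called. Syt8, beyond Ctsd, had 24 reads in all. Hras (-1.38, adjusted p = 0.0287, limma) and Dusp8 (-1.44, adjusted p = 0.012) were lower at day 12 in WT cells. In Def6-/- cells Dusp8 (-1.22, adjusted p = 0.0252) was lower and Sirt3 (1.23, adjusted p = 0.0357) higher at day 12. Rassf7 was lower in Def6-/- cells at day 12 (-1.14, unadjusted p = 0.0258, limma).

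**Figure D4:**
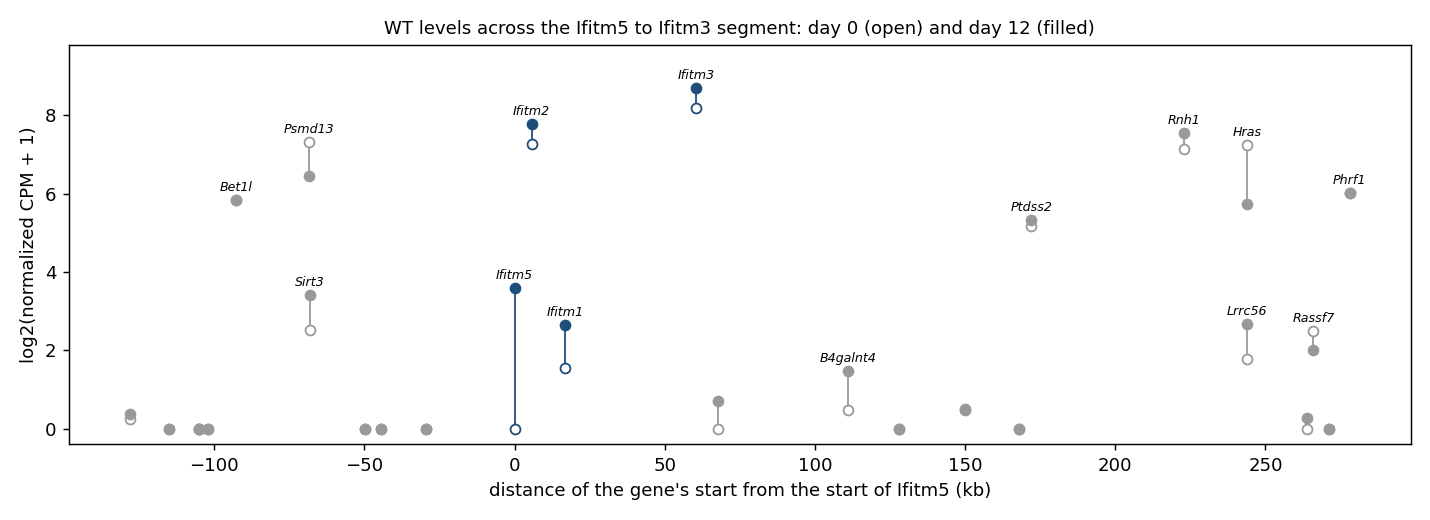
Mean WT level (log2 of normalized CPM + 1) at day 0 (open) and day 12 (filled) for the 4 clustered IFITM genes (blue) and other genes of the files (grey), against the distance in kb of each gene's start from that of Ifitm5, with names given to the members and to genes of at least 1.5 normalized CPM. Ifitm5 goes from 0 to 11.1 normalized CPM, with Ifitm2 on its right. The nearest genes on its left are silent, while Psmd13, Sirt3 and Bet1l further left are read.

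The genes most like each member over the 8 libraries were found by Pearson's r of log2(normalized CPM + 1), as a description. The libraries share day and genotype groups, so a high r can follow group means. The genes named are the highest of all genes tested, a choice that favours a high r. Ifitm5 was most like Ccpg1 (r = 0.997), Car3 (r = 0.996) and Clec3b (r = 0.996). Clec3b, which encodes tetranectin, had, like Ifitm5, no reads at day 0, and stood at 6.86 normalized CPM in WT and 11.7 in Def6-/- cells at day 12. Car3, carbonic anhydrase 3, was at 13.3 and 30.2 normalized CPM at day 12 and at 0.182 and 0.369 at day 0.

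Ifitm1 was most like Cilp2 (r = 0.989), Fndc4 (r = 0.980) and Fpr1 (r = 0.973), a receptor of phagocytes for formyl peptides. Ifitm2 was most like Glyr1 (r = 0.990), Slc2a4 (r = 0.988) and Mccc1 (r = 0.981). Ifitm3 was most like Calm3 (r = 0.960), Gm12250 (r = 0.958) and H2-Ke6 (r = 0.953), and Ifitm10 like Nme7 (r = 0.971), Capn10 (r = 0.948) and Foxp3 (r = 0.916). The group means of Ifitm10 lay between 8.1 and 9.98 normalized CPM, while its libraries ran from 5.81 to 13.7. Its r values therefore mostly follow differences between libraries of the same group. Among the members, Ifitm5 was most like Ifitm2 (r = 0.89) and least like Ifitm10 (r = 0.06), and Ifitm3 was more like Ifitm1 (r = 0.82) than like its neighbour in abundance, Ifitm2 (r = 0.52).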

How the data were processed

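RNA from 8 cultures was made into poly-A libraries and sequenced by the study. Per the labels and the study's methods, the authors trimmed reads with fastp, mapped them with HISAT2 (genome build mm10), counted reads per gene using HTSeq and deposited CPM from edgeR. Versions, annotation, strand setting and test options are not given in the sources used here. The deposited CPM are relative to all reads, unassigned ones included. Reads were recovered from the CPM steps: 99.957% of 114821 values above 0 were whole within 0.02 reads, and the 9 genes with other values include no member. They are Acp5, Adgre1, Cd14, Csf1r, Ctsk, Fcgr3, Itgam, Itgb3 and Ptprc, genes related to macrophages or osteoclasts. CPM were rescaled to reads on genes with TMM factors (edgeR 4.0.16).

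The main test was limma 3.58.1 (R 4.3.3, eBayes with trend) on log2(normalized CPM + 1), with all 8 libraries as 4 group means keeping genes that averaged 1 deposited CPM or more in some group. A fold change on this scale understates that of low genes. Day comparisons were called at an adjusted p under 0.05, and genotype comparisons and the interaction at an unadjusted p under 0.05 with over 1.2-fold, the study's rule. On the recovered reads edgeR's quasi-likelihood test called 2333 genes for WT and 2050 for Def6-/- cells between the days, and limma 2307 and 2130. DESeq2 1.42.0, other scalings, pseudocounts, filters, a replicate block and leaving out each library were the alternatives. The study describes its replicates as biological.

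The members and gene lists were chosen with earlier results of these data known. Named genes were all members, the 3 genes most like each, and from each list those with the smallest p, all binding partners, and for neighbours the called and the 2 nearest on each side. Further osteoblast genes were named to show those that fell, were not called or led the day 0 sum. The macrophage marker Ptprc was left out because its values are not whole reads. Gene positions and exon lengths are from GENCODE M21, which matched 95.7% of the symbols. RefSeq promoters were matched by symbol for all 5 members, and those printed begin, beyond the printed part, with the start of a GENCODE transcript. A share or level covers the counting error of 2414856 to 3482837 reads per library only. The methods were tested on simulated data.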

Additional observations from a re-analysis of the deposited data

How the results depend on the processing

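Of 433 alternative values for single members, 389 kept their direction and their side of the threshold, 12 lost a call, 12 gained one and 20 changed sign, all 20 in values that were not called. For WT cells between the days, 1 to 3 members were called on leaving out a library, and every other alternative called 1. For Def6-/- cells between the days it was 1 with the CPM as deposited, 3 when only the groups compared were fitted, and 1 to 3 on leaving out a library. Between the genotypes at day 12 it was 0 with a pseudocount of 0.5, 0 with 0.1, 0 with the filter at 5 CPM and 0 with DESeq2 on the reads, 2 when only the groups compared were fitted, and 0 to 2 on leaving out a library. Between the genotypes at day 0 and for the interaction, 0 to 1 member was called on leaving out a library. The cause was not tested.

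The replicate number was not shown to pair the libraries (correlations of same-numbered deviations 0.00284 to 0.325, with 4 of 6 pairs of groups under 0.1). The fit with a replicate block called the same numbers of members, 1 and 2 between the days, 0 and 1 between the genotypes and 0 for the interaction, with an unadjusted limma p of 0.049 for Ifitm5 at day 12.

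Changes of sign came with the CPM as deposited for Ifitm1 at day 12 (0.03) and, for the interaction of Ifitm10, with DESeq2 size factors (0.01), edgeR (0.16) and DESeq2 (0.20). On leaving out each library the log2 differences of Ifitm10 ran from -0.43 to 0.65 and -0.35 to 0.62 between the days, -0.70 to 0.33 and -0.67 to 0.30 between the genotypes at day 0 and day 12, and -0.52 to 0.50 for the interaction. Those of Ifitm1 ran from -0.27 to 0.57 at day 0, -0.05 to 0.01 at day 12 and -0.59 to 0.24 for the interaction. Those of Ifitm3 ran from -0.54 to 0.15 at day 0 and -0.54 to 0.14 for the interaction, and that of Ifitm2 at day 12 from -0.04 to 0.60. The likeness of Glyr1 to Ifitm2 fell to r = 0.899 and that of Calm3 to Ifitm3 to r = 0.837 with the CPM as deposited. The median of all genes moved by at most 0.10 (log2) when another scaling replaced TMM. Ifitm1 and Ifitm5, at 3 to 18 and 25 to 55 reads per library where detected, are limited by depth.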
